A study of Caenorhabditis elegans with 2 samples.

Results

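Chromosome III of Caenorhabditis elegans held 423 of the 2689 regions in the authors' pooled list of binding sites of the protein Y116A8C.19, and these 423 regions are described here. They were taken by chromosome name alone, on the genome build ce11 (WBcel235). Of them, 54 (12.8%) were also in the authors' thresholded list, against 144 of 2266 regions (6.35%) on the other 5 nuclear chromosomes and 7.36% of all 2689. The thresholded list was made with IDR, the irreproducible discovery rate, which keeps regions whose ranks hold up between replicates, and its members are called IDR peaks below. The question was whether the number of gene starts on III accounts for its share of the IDR peaks.

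Binding was measured by chromatin immunoprecipitation and sequencing (ChIP-seq), in which DNA bound by a protein is pulled down and sequenced. There was a single group of 2 biological replicates. It consisted of whole hermaphrodite L1 larvae, starved after bleaching to synchronize them and collected 6 h later, of strain OP532, genotype unc-119(tm4063) III; wgIs532. The insertion wgIs532 makes Y116A8C.19 with GFP and FLAG at its C-terminal end, and the antibody was directed against GFP. No untagged or untreated worms were among the samples, and a control experiment that the labels name is not analysed here. The sources used here give neither the promoter nor the integration site of the transgene. Whole animals mix all tissues, so a region bound in a few cells and one bound weakly in many cannot be told apart. The lists keep no read counts, so read depth is unknown.

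RefSeq annotates Y116A8C.19 as a C3H1-type domain protein, the C3H1 domain being a zinc finger, a small fold that holds a zinc ion. Worm autosomes have a gene-dense central part and arms with more repeats and fewer conserved genes. Many worm genes lie head to head and share the sequence between their 5′ ends, and others lie in operons, runs of genes on the same strand that are transcribed from a promoter at the head of the run. A factor that sits near gene starts would therefore have more sites where gene starts are dense, which is why the gene density of III was measured.

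The DNA under the summits, the points of highest signal, is shown first, because short elements recurred in it. An 8-base element, CTAGGCCA (TGGCCTAG on the other strand), and a second, GAGTACAC (GTGTACTC on the other strand), were read from the 144 IDR peaks that are not on III, so the windows on III had no part in choosing them. Capitals mark matches to either element with at most 1 mismatch, on either strand. All are the + strand of ce11, 5′ to 3′, from windows of a summit and 75 bases on each side, and annotated untranslated bases at the ends were left off.

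The peak at the 5′ ends of cux-7 and C07H6.2, of which chrIII:7520846-7520914 is printed, is shown as the strongest of all 198 IDR peaks. The bases left off hold its summit and a match to GAGTACAC, with starts of the 2 elements 37 bp apart:
cux-7: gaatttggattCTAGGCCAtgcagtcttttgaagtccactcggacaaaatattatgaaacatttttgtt
The windows at gly-5 (an intron, chrIII:13187883-13188033), wrm-1 (chrIII:5721976-5722126), mib-1 (chrIII:11290677-11290789) and lron-10 (chrIII:10621370-10621494) are shown because they hold both elements, with starts 14 bp apart in the windows of gly-5, wrm-1 and mib-1 and 27 bp apart in that of lron-10:
gly-5: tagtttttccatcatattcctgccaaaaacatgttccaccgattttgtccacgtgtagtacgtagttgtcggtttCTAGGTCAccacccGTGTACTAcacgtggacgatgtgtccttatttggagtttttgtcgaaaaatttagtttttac
wrm-1: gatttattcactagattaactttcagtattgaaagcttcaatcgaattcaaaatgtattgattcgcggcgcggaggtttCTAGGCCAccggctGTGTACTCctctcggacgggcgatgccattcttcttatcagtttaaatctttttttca
mib-1: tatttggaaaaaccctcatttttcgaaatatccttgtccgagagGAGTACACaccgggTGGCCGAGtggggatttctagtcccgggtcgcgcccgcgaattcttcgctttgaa
lron-10: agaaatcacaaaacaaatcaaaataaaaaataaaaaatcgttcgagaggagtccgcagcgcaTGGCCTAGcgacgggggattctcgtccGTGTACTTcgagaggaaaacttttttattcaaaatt
The window at C14B9.8 and mrpl-18, chrIII:8144702-8144852, is shown for exact copies of both elements farther apart:
C14B9.8: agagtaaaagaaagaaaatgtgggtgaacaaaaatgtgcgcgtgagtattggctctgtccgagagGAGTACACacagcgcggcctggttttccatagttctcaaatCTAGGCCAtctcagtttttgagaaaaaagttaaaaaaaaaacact
The window upstream of rpl-3, chrIII:3867481-3867631, is shown as a strong peak with neither:
rpl-3: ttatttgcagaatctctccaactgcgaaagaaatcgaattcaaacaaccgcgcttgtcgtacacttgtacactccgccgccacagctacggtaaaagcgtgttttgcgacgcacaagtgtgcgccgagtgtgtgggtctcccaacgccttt

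Either element stood in 29 of the 54 III summit windows (53.7%, exact binomial 95% interval 39.6 to 67.4), CTAGGCCA in 22 and GAGTACAC in 18. In windows 500 bp to either side of the same peaks the share was 9.26% (10 of 108), in III pooled regions away from any IDR peak 11.3% (41 of 363), and over all 91283 adjoining windows of that length on III 9.97%. Both elements stood in 11 III peaks (20.4%), against 0.301% of all windows. A match says only that these letters are in the window. The 27 stronger III peaks held either element in 59.3% of windows and the 27 weaker ones in 48.1%. Among the IDR peaks of the other chromosomes, from which the elements were read, the share was 51.4% (74 of 144), 2.31 points below III with an interval of the difference from −13.0 to 17.3 points.

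In the 11 windows with both, the starts of the nearest pair were 10 to 41 bp apart (median 17). At gly-5, wrm-1 and mib-1 the distance was 14 bp in each. The windows of gly-5 and wrm-1 read the pair in the same orientation on the + strand, and that of mib-1 reads it from the other strand. GAGTACAC also had constant neighbours: the 9 bases before its 28 exact copies under the peaks of the other chromosomes gave, by the commonest base at each place, the 17-base sequence gtccgagagGAGTACAC, with the 8-base element in capitals. With up to 3 mismatches on either strand this longer sequence was in 15 of 54 III peaks (27.8%), in 5 of 363 other III regions (1.38%) and in 0.283% of all windows of III. It was found whole in 5 III peaks and in 0 of those 363 regions, which allows a share of up to 0.826% there by counting error alone.

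III held more IDR peaks than its gene starts would give it in each comparison made. Chromosome III carries 2640 protein-coding 5′ ends, 191.5 per Mb, against 200.4 per Mb on the other chromosomes together, where single chromosomes run from 154 to 239 per Mb. From its share of 5′ ends III would hold 26.2 of the 198 IDR peaks, and it held 54. That is 2.05 peaks per 100 5′ ends on III against 0.831 on the others, a ratio of 2.46 (exact 95% interval 1.77 to 3.39). The exact binomial p, adjusted by the Benjamini-Hochberg method over the 6 chromosomes, was 8.74e-07. Since III was picked for a known excess, this p is a description and not independent evidence for the excess, whose size is given by the ratio. Peaks are not replicates, and the interval covers counting error only.

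The ratio depended little on how gene starts were counted. Per base of length it was 2.35 (1.69 to 3.24). A promoter window was taken as 1000 bp upstream to 200 bp downstream of a protein-coding 5′ end, and the merged windows cover 20.2% of III against 21.7% of the other chromosomes. Counting only summits inside the windows, III had 43 peaks and 15.4 per Mb of window, against 111 and 5.93 per Mb elsewhere, a ratio of 2.61 (1.79 to 3.74). Against the weaker regions of the same pooled list, those that overlap no IDR peak, III had 14.9 IDR peaks per 100 such regions and the other chromosomes 6.82, a ratio of 2.18 (1.56 to 3.00). The weaker regions were thus not in excess on III to the same degree as the IDR peaks.

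**Figure D1:**
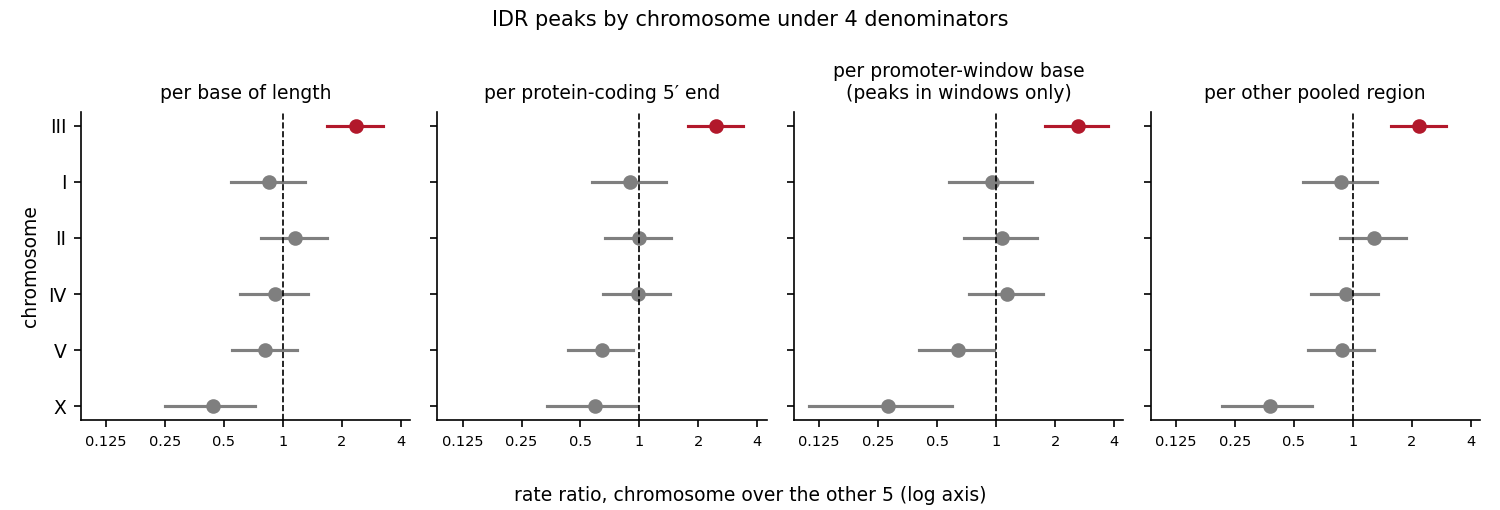
Rate of IDR peaks on each chromosome over the rate on the other 5, as a ratio on a log axis, per base of length, per protein-coding 5′ end, per promoter-window base and per other pooled region. Points are ratios and lines exact 95% intervals. III sits between 2.18 and 2.61 in the 4 panels, and no other chromosome has an interval wholly above 1.

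X had the lowest ratio, 0.593 per 5′ end (0.338 to 0.976, adjusted exact p = 0.0760) and 0.281 per promoter-window base (0.111 to 0.593). Without X in the comparison the ratio of III to the other autosomes was 2.35 per 5′ end. Operon-like genes were counted as well. Genes whose 5′ end lies within 500 bp downstream of a gene on the same strand were called operon-like followers, and a gene with a follower that follows none itself was called a head. III has 28.9 heads per Mb and the other chromosomes 26.1, with 12.4 to 32.5 on single chromosomes. Followers were a larger share of genes on III, 601 of 2640 against 3014 of 17333 elsewhere. Without followers III has 147.9 5′ ends per Mb and the other chromosomes 165.6. With heads alone as the expectation the ratio was 2.13 (1.53 to 2.93), and with followers left out it was 2.63.

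Seen gene by gene, 72 of 2640 protein-coding genes of III (2.73%) had an IDR summit in their promoter window, against 163 of 17333 (0.940%) on the other chromosomes. Among operon-like heads these shares were 5.53% (22 of 398) on III and 1.95% (44 of 2260) elsewhere, a difference of 3.58 points (1.62 to 6.32). Among followers they were 1.66% (10 of 601) and 0.962% (29 of 3014), a difference of 0.702 points whose interval, −0.163 to 2.10, includes 0. Among the remaining genes they were 2.44% (40 of 1641) on III and 0.746% elsewhere.

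Along the chromosome, in 1-Mb bins numbered from the left end, IDR peaks were found in 12 of 14 bins, and they were not gathered in a single stretch. Bins 1 to 14 held 5, 3, 0, 3, 5, 7, 0, 3, 6, 2, 7, 6, 5 and 2 IDR peaks in that order. The 5′ ends in the same bins numbered 175, 158, 144, 152, 252, 236, 197, 225, 238, 230, 208, 156, 134 and 135. Gene starts were thus densest in bins 5 to 11, with a dip to 197 in bin 7, whereas bins 1, 12 and 13 had 5 or 6 peaks with 134 to 175 5′ ends. Bin 13, with the fewest gene starts, had 3.73 IDR peaks per 100 of them. Bins with 5 or more IDR peaks made up 7 of 14 on III and 4 of 89 on the other chromosomes.

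**Figure D2:**
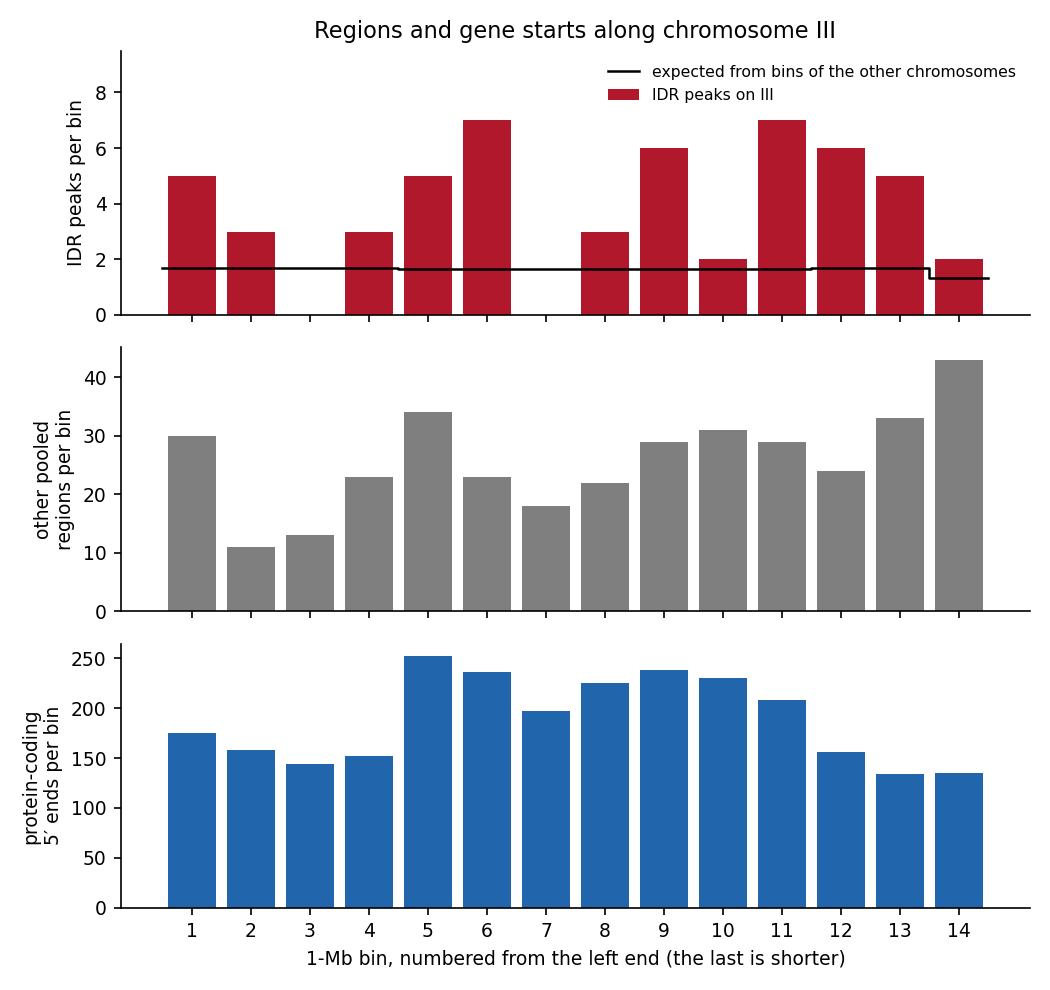
IDR peaks (top), pooled regions that overlap no IDR peak (middle) and protein-coding 5′ ends (bottom) in each 1-Mb bin of chromosome III, numbered from the left end, where the last is shorter. The black line is the number of IDR peaks that bins of the same density hold on the other chromosomes by the fitted model. Peaks exceed it in 12 of 14 bins, and bins 3 and 7 hold none.

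Rank correlation of 5′ ends with IDR peaks per Mb was 0.309 over the 14 bins of III and −0.010 over the 89 bins of the other chromosomes, given as descriptions since neighbouring bins share their surroundings. A quasi-Poisson model of the peaks per bin, with 5′ ends as covariate and a term for III, gave a III term of 2.36 (95% interval 1.70 to 3.28) over 103 bins. The exponent for gene density was 0.097 (−0.453 to 0.647), a wide interval that includes 0, so dependence on density at this scale was poorly determined. With operon-like heads in place of all 5′ ends the exponent was 0.302 (−0.017 to 0.622). The dispersion of the model with all 5′ ends, 1.08, was near that of plain counting. From the bins of the other chromosomes, bins as dense as those of III would hold 23.0 IDR peaks, against 54 observed.

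III had the higher rate in each class of density. In bins with under 150 5′ ends per Mb, III had 2.5 peaks per Mb and the others 1.69, from 5 and 22 peaks. With 150 to under 200 it had 3.29 against 1.67, from 19 and 50 peaks. In bins with 200 to under 250, III had 5.00 peaks per Mb (3.24 to 7.38) against 1.56 (1.13 to 2.11), and its single bin of 250 or more had 5 peaks, against 1.81 per Mb in 16 bins elsewhere. Only in the class of 200 to under 250 did the intervals of III and the rest not overlap.

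**Figure D3:**
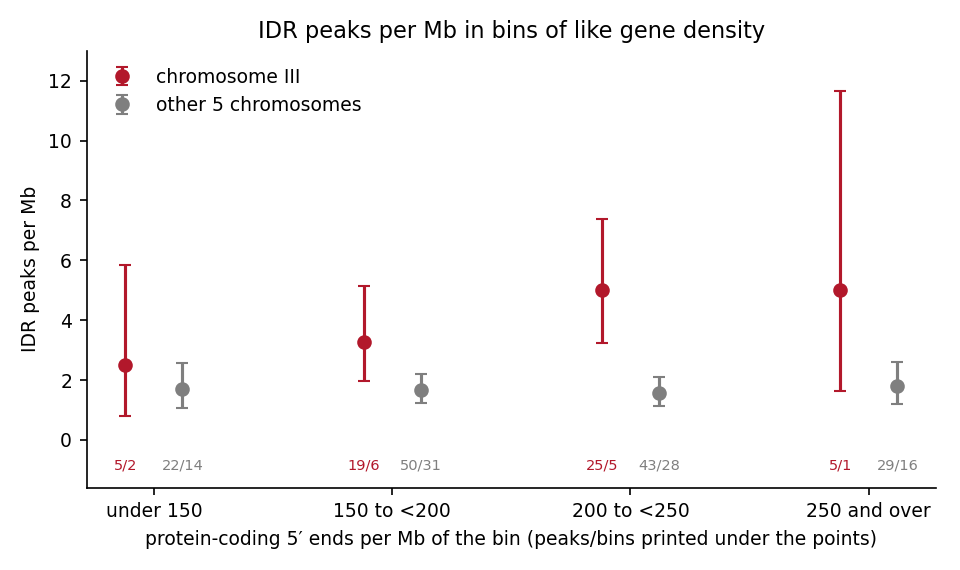
IDR peaks per Mb in bins grouped by their protein-coding 5′ ends per Mb, for chromosome III and for the other 5 chromosomes. Points are rates, bars exact Poisson 95% intervals, and the numbers under the points are peaks over bins. III is above the others in all 4 classes, from 2.5 against 1.69 in the sparsest to 5.00 against 1.81 in the densest.

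Pairs of IDR summits within 5 kb were rare on III, but looser groups occurred. The median distance from an IDR summit to the nearest other on the same chromosome was 94.0 kb on III and 185 kb on the other chromosomes. Only 1 pair on III lay within 5 kb, 4830 bp apart, at the 5′ end and in an intron of gei-4 in bin 1. Past that cut, the summits at chrIII:4899924, 4905526, 4912516 and 4930462 in bin 5 lay close to each other. With peaks within 5 kb counted once on every chromosome, III had 53 and a III term of 2.47. The longest stretch without an IDR peak ran for 1534946 bp, between the summits at chrIII:1921479 in pqn-41 and chrIII:3456425 in C34C12.2, and it includes all of bin 3. The strongest region in bin 3, upstream of apb-1 and mdt-19, had a signal of 54.8 and stood just below the IDR list. The strongest in bin 7 had a signal of 40.9, with atgl-1, which encodes a triglyceride lipase, as the nearest 5′ end.

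The share of peaks at promoters was much the same on III as elsewhere. Of the III IDR peaks, 43 of 54 (79.6%, 66.5 to 89.4) had their summit in a promoter window, against 111 of 144 (77.1%) on the other chromosomes, a difference of 2.55 points with an interval from −11.4 to 14 points. Of the III regions overlapping no IDR peak, 135 of 363 (37.2%) lay in such windows, against 34.4% elsewhere. Outside windows, 8 III IDR peaks were intronic, 2 intergenic and 1 in a 5′ untranslated exon of C34C12.2. Intergenic peaks made up 3.70% on III and 12.5% (18 of 144) elsewhere, a difference of −8.80 points whose interval, −15.7 to 1.09, includes 0. The windows of genes on both strands met at 22 III summits (40.7%) and at 30.6% of summits elsewhere, a difference of 10.2 points (−4.26 to 25.2).

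Summits lay close to gene starts, at a median of 199.5 bp from the nearest protein-coding 5′ end on III and 257 bp on the other chromosomes. They lay 1117 bp from it in the weaker III regions. The summit was upstream of that 5′ end for 41 of the 54 III peaks.

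**Figure D4:**
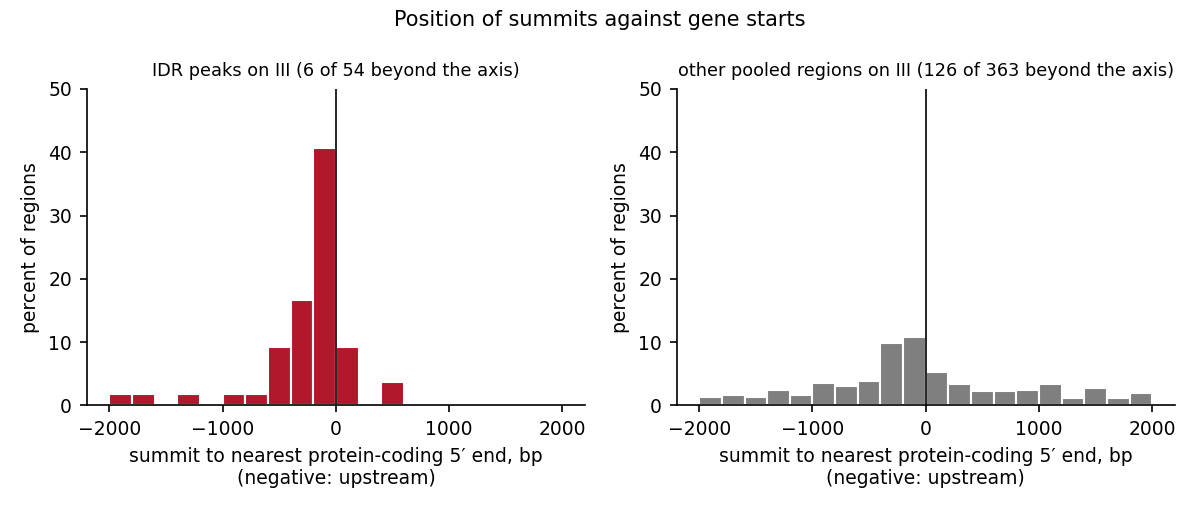
Distance from the summit to the nearest protein-coding 5′ end in steps of 200 bp, as percent of the 54 IDR peaks on III (left) and of the 363 pooled regions on III that overlap no IDR peak (right), with negative values upstream. IDR peaks gather just upstream of a gene start, and 6 of 54 and 126 of 363 lie more than 2000 bp away and are not drawn.

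The excess on III was found at promoters and in introns alike. Of all pooled regions in promoter windows, 43 of 182 on III (23.6%) were IDR peaks, against 111 of 845 (13.1%) elsewhere, a difference of 10.5 points (4.39 to 17.5). Of intronic regions, 8 of 106 on III (7.55%) were IDR peaks, against 14 of 529 (2.65%), a difference of 4.90 points (0.833 to 11.6). Of intergenic regions the shares were 2.99% on III and 3.55% elsewhere, and none of 49 regions in coding exons of III was an IDR peak.

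Whether the sequence elements were denser on III depended on how they were counted. Places with both elements, each with at most 1 mismatch and with starts within 60 bp, numbered 196 on III, 14.2 per Mb, and 14.5 per Mb on the other chromosomes. Inside promoter windows there were 20.5 such pairs per Mb of window on III, the highest of the 6 chromosomes, and 16.0 on the others. Exact copies of CTAGGCCA numbered 77.9 per Mb on III and 53.7 on the others, with 11.9 to 147 on single chromosomes, and those of GAGTACAC 30.6 and 25.3, with 15.0 to 40.8. Of the pairs on III, 13 (6.63%) fell within 195 bp of an IDR summit, against 29 of 1257 (2.31%) elsewhere, a difference of 4.33 points (1.44 to 8.76). Of the pairs inside promoter windows, 12 of 57 on III (21.1%) and 25 of 300 elsewhere (8.33%) did so. No pair on X did so, and against the other autosomes alone the difference within windows was 10.9 points (1.29 to 23.6). The elements came from the peaks of those other chromosomes. Peaks with and without the elements were both in excess on III: the ratio per 5′ end was 2.57 (1.61 to 4.0) for IDR peaks that held either element and 2.34 (1.42 to 3.75) for those that held neither.

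All 54 III peaks were found in both replicate lists. The signal is the authors' value per region, on a scale that no source used here states, and it is used only within a list. Over the 54 peaks the pooled signal had a median of 80.7 and ran from 55.1 to 248, against a median of 73.5 and a range of 55.0 to 227 on the other chromosomes. Replicate 1 gave them 30.7 to 155 (median 49.3) and replicate 2 gave them 8.95 to 92.3 (median 30.7). With the scale and depth unknown, these values do not compare the strength of binding between replicates. The rank correlation between replicates was 0.623 over the III peaks and −0.104 over the 273 weaker III regions found in both lists. Since the IDR peaks were the 198 strongest pooled regions, these correlations are descriptions.

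**Figure D5:**
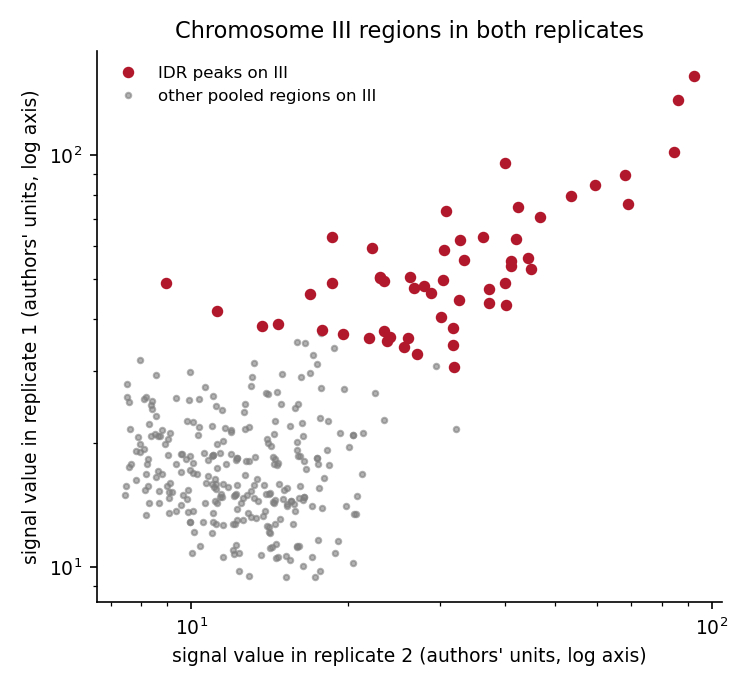
Signal value of each III region in replicate 1 against replicate 2, both on log axes in the authors' units, for the 54 IDR peaks and for the 273 other pooled regions on III that both replicate lists hold. The groups overlap: 9 of the 54 IDR peaks are no higher than the highest of the weaker regions in replicate 1 (37.0), and 31 of 54 are no higher than it in replicate 2 (32.3).

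Each replicate alone also placed a large share on III: 52 of its 198 strongest regions in replicate 1 and 47 of 198 in replicate 2. Of these, 39 overlapped between replicates, which is 75% of the 52 and 83.0% of the 47. In the pooled list III held 3 of the 5 strongest regions, 15 of the 50 strongest and 30 of the 99 strongest. Its share was 28.0 to 30.3% among the 10, 25, 50 and 99 strongest and 27.3% among all 198.

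The strongest of all 198 peaks lay on III at cux-7, C07H6.2 and lig-4, the gene for DNA ligase IV, which seals broken ends in non-homologous end joining. Its signal was 248 in the pooled list, 155 in replicate 1 and 92.3 in replicate 2, and it ranked first in all 3. Relative to 5′ ends, with negative values upstream, the summit stood 6 bp into cux-7 and at −624 bp for lig-4. Y56A3A.7 is annotated as a cut-like homeobox protein, and its intronic peak had 226 pooled, 136 in replicate 1 and 86.2 in replicate 2, the third and the second rank of those replicates. The peak shared by F10E9.5, F10E9.7 and F10E9.4 had 189 pooled, 102 in replicate 1 and 84.6 in replicate 2. These were the 3 strongest on III, and all were among the 10 strongest regions of each replicate.

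Next came a peak between tasp-1, the gene for a threonine aspartase, and K01G5.10, with 155 pooled, 89.4 in replicate 1 and 68.1 in replicate 2. The peak at −46 bp from thoc-5, whose product belongs to the THO complex that couples transcription to mRNA export, had 146 pooled, 76.2 in replicate 1 and 69.1 in replicate 2. An intron of gly-5, the gene for an enzyme that starts mucin-type sugar chains on proteins, held the peak with 145 pooled, 84.6 in replicate 1 and 59.5 in replicate 2. All 3 were strong in both replicates, with ranks of 32 or better.

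Genes for 2 subunits of the checkpoint clamp that loads at damaged DNA followed. The peak 159 bp inside mrt-2, the RAD1 homologue, had 137 pooled, 95.3 in replicate 1 and 40.0 in replicate 2. The peak between lron-10 and hpr-9, the RAD9 homologue, had 126 pooled, 79.4 in replicate 1 and 53.7 in replicate 2. The first was more uneven between replicates, at rank 12 in replicate 1 and 48 in replicate 2.

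Upstream of rpl-3, a protein of the large ribosomal subunit, the peak had 124 pooled, 74.6 in replicate 1 and 42.4 in replicate 2. The tenth, shared by K10D2.5, the splicing gene prp-19 and emb-1, had 117 pooled, 70.6 in replicate 1 and 46.8 in replicate 2. The peaks ranked 11 to 20 on III had pooled signals from 105 down to 92.1. They lay at C45G9.2 and C45G9.11, Y75B8A.24 and Y75B8A.25, C34C12.9, Y48A6C.4 and sup-35, cox-5A (a subunit of cytochrome c oxidase), an intron of dhc-4 near col-94, dhhc-4, F26F4.9 and cee-1, F01F1.3 and F01F1.11, and mcm-10 (a DNA replication factor). None of the 20 strongest ranked past 90 in either replicate.

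Of the remaining bins, bin 1 had an intergenic peak as its strongest, with 68.2 pooled, 40.5 in replicate 1 and 30.2 in replicate 2. The nearest protein-coding 5′ end, that of fbxa-55, was 4479 bp away, and the summit window repeats a short sequence. In bin 2 the strongest peak lay upstream of ddp-1, whose product is a small chaperone of mitochondrial protein import, and ttc-7. That peak had 71.2 pooled, 48.9 in replicate 1 and 18.6 in replicate 2. The first 2 bins thus held IDR peaks, but none above 71.2 in pooled signal.

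At the edge of the list, the weakest III IDR peak lay upstream of F44E2.9 and F44E2.8, with 55.1 pooled, 41.7 in replicate 1 and 11.2 in replicate 2. The strongest III region outside the list, upstream of apb-1 and the Mediator gene mdt-19, had 54.8 pooled, 21.6 in replicate 1 and 32.3 in replicate 2. The first ranked 136 in replicate 1 and 6127 in replicate 2, the second 810 and 79. The other low ranks of IDR peaks were all in replicate 2: 13565 for the intronic peak of gei-4, 2372 for that of Y111B2A.12, 1609 at F26F4.8 and 718 at K12H4.5. Membership of the list therefore did not need a high rank in each replicate.

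Gene groups on III are set against the 72 of 2640 protein-coding genes (2.73%) with an IDR summit in their window. These lists were drawn up by gene name or annotation class with earlier results of these data known, so the counts are descriptions. Of 18 cytosolic ribosomal protein genes 3 were bound: rpl-3 as above, rpl-35 with 84.5 pooled, 55.6 in replicate 1 and 33.4 in replicate 2, and rps-12 with 59.1 pooled, 34.2 in replicate 1 and 25.6 in replicate 2. Of 15 splicing and mRNA export genes 3 were bound: thoc-5, prp-19 and mog-3, a splicing-related gene of the germline sex decision, the last with 64.1 pooled, 48.0 in replicate 1 and 28.0 in replicate 2. On the other chromosomes these lists had 6 of 63 and 1 of 35 bound.

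Of 9 apoptosis and DNA damage genes 2 were bound, lig-4 and mrt-2. hpr-9, which acts with mrt-2, was not on that list. The summit counted for lig-4 stood at −624 bp, with C07H6.2 on the same strand in between, and its nearest 5′ end was that of cux-7. Of 15 chromatin genes 2 were bound, both for methyltransferases of histone H3 lysine 4: set-16, whose peak it shared with drr-2, with 77.2 pooled, 46.2 in replicate 1 and 28.8 in replicate 2, and set-2 with 63.1 pooled, 36.1 in replicate 1 and 24.1 in replicate 2. Of 11 chaperone genes 1 was bound, hsp-60, the mitochondrial chaperonin, at a peak whose nearest 5′ end was that of Y22D7AL.10, with 64.8 pooled, 34.6 in replicate 1 and 31.8 in replicate 2. Of 22 mitochondrial ribosomal protein genes 1 was bound, mrpl-18, with 85.9 pooled, 43.2 in replicate 1 and 40.2 in replicate 2. On the other chromosomes 1 of 19 apoptosis and DNA damage genes and 6 of 43 chromatin genes were bound. So were 3 of 48 chaperone and 1 of 48 mitochondrial ribosomal protein genes, against 0.940% of all protein-coding genes there.

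Some groups had no bound member on III: 13 homeobox genes listed by name (Y56A3A.7 was not on that list), 12 collagens, 8 nuclear receptors, 8 proteasome genes, 16 neuropeptide and receptor genes, 6 tRNA synthetases, 5 translation factors and 4 solute carriers. At a rate of 2.73% lists of this size would hold few bound genes or none. Of 71 F-box and MATH/BTB genes 1 was bound, fbxb-85, which shared its peak with hex-3, with 80.2 pooled, 43.7 in replicate 1 and 37.4 in replicate 2. Of RNA genes, 0 of 64 tRNA, 0 of 27 miRNA and 0 of 78 piRNA genes were bound. For the snoRNA genes F54E7.10 and F54E7.11 (2 of 54), the summit of the rps-12 and ska-3 peak stood at −308 and −675 bp. These snoRNA genes have that summit in their upstream windows but lie outside the peak. The snRNA gene R07E5.16 (1 of 13) lay in the intronic peak of dhc-4.

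The strain carries its marker mutation, unc-119(tm4063), on III, and such strains usually carry a rescuing copy of unc-119 with the transgene. No IDR peak lay at unc-119 (chrIII:10902641-10908935, + strand), a gene of nervous system development. Within the gene lay 2 weaker pooled regions, with signals of 30.3 and 25.7 at ranks 928 and 2118. Replicate 1 had 4 regions that overlapped the gene, with signals of 10.8 to 18.2, and replicate 2 had 4 with 9.62 to 21.3. The region with 21.3 ranked 249 in replicate 2. In each replicate a region reached past the 3′ end of the gene. The gene thus contributed 0 of the 54 III peaks.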

How the data were processed

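The 2 samples are biological replicates of 1 group, so p-values and intervals measure counting error over regions and not variation between worms. Per the labels and accompanying notes, the authors called regions per replicate and on both replicates pooled, with a control, and thresholded them by IDR. No source used here names the aligner, the caller or the IDR threshold. The deposited signal value of each region, on an unstated scale, served only to order regions inside 1 list. The deposited −log10 q-value was the same for all IDR peaks and was not used for ranking. Depth is unknown. The replicate lists held 22595 and 22358 regions in ce11, 3123 and 3139 of them on III, and 0 columns of sample values were left unused. The IDR peaks were the 198 strongest pooled regions.

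Here, regions were placed by summit on the Ensembl release 115 annotation and RefSeq sequence (both WBcel235). Each summit took the first class it met among promoter window, 5′ untranslated, coding exon, 3′ untranslated, intron, non-coding gene, intergenic. Overlap between lists needed 1 bp. Chromosome counts were compared by two-sided exact binomial tests with exact conditional intervals, adjusted over the 6 chromosomes by the Benjamini-Hochberg method at 0.05, shares by exact binomial and Newcombe 95% intervals, and bins by a quasi-Poisson fit. The 8-base elements were those with the largest share in summit windows minus flanks on the other chromosomes, the second sharing no 5 adjoining bases with the first. The 17-base extension was added after the data were seen. The members, gene lists and questions were chosen with earlier results of these data known. Genes named are those at the 20 strongest III peaks, the strongest region of each bin, both sides of the IDR threshold, up to 4 bound members of each of 20 lists, the 5 peaks ranking lowest in a replicate, and unc-119. Other genes (wrm-1, mib-1 and those shown for their elements) were chosen after their windows were seen. Code was tested on simulated data. Tools were Python 3.11.15 with SciPy 1.17.1, NumPy 2.4.6, Matplotlib 3.10.9 and pandas 2.3.3.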

Additional observations from a re-analysis of the deposited data

How the results depend on the processing

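Of 54 alternatives (50 planned, 4 chosen after seeing the data), those of the III excess all kept its direction and stayed past 0.05, and shares stayed within their counting interval in all but 1. III was picked for its excess and the alternatives draw on the same replicates, so they are not independent evidence for it. The ratio ran from 1.77 to 2.73 per base of length, 1.85 to 2.85 per 5′ end, 2.05 to 2.90 per promoter-window base, 1.64 to 2.43 per other pooled region and 1.76 to 2.74 in the bin model. The lower ends came from taking as many pooled regions again as there are IDR peaks and the upper ends from the 99 strongest IDR peaks. With only 1 replicate used, without replicate 1 and without replicate 2, the ratio was 1.95 and 2.23 per base, 2.04 and 2.34 per 5′ end, 2.39 and 2.53 per window base, 1.77 and 2.06 per other pooled region and 1.98 and 2.24 in the bin model. The promoter share was 78.7 and 78.8% and the share with either element 48.9 and 59.6%. The promoter share was 66.7% with windows of 500 bp upstream and 85.2% with 2000 bp. Exact matches alone lowered the share with either element to 38.9%, since fewer sequences then match. The ce10 list put 68 of 263 peaks on III, a ratio of 2.19, with the chromosome lengths of ce11. No paired analysis was possible because there is 1 group. Depth, the control and mappability along III were not tested, since the lists hold no reads.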
